A study of Rattus norvegicus with 4 samples.

Results

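Dystroglycan, the sarcoglycans, dystrophin, utrophin, the syntrophins and dystrobrevin form a complex across the plasma membrane, and its transcripts were followed in OLN93 cells with and without functional Sox10. OLN93 is a rat cell line of the oligodendroglial lineage that became immortal in culture. The controls, with the genotype Sox10-positive, were control 1 and control 2, given as biological replicates in the labels and as clones in the methods of the study. The Sox10-deficient samples were clones A and B, which descend from cells edited by CRISPR/Cas9 with different guide RNAs. All 4 samples came from the same line grown in serum-containing medium, and no other treatment was named. The treatment text of the labels names the editing for all 4, so that whether the controls went through an editing procedure is not clear from it. The edited group thus rests on 2 clones of 1 line, so that changes that arose while a clone was isolated cannot be told apart from those that go with the loss of Sox10.

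The 9 genes were taken by symbol, namely Dag1, Sgcb, Sgcd, Sgce, Dmd, Utrn, Sntb1, Sntb2 and Dtna. Of these, 8 are among the 17327 gene symbols with deposited counts, and Dtna, which encodes alpha-dystrobrevin, has no row there. Dag1 and Utrn, among 2438 genes in all, had enough counts to be tested, and the other 6 genes with counts did not. Both of these had less RNA in clones A and B.

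The complex ties the extracellular matrix to the actin cytoskeleton. Dag1 encodes a precursor that is cut into alpha-dystroglycan, a heavily glycosylated receptor for laminins and related matrix proteins, and beta-dystroglycan, its membrane-spanning partner. Dystrophin or its paralog utrophin holds the tail of beta-dystroglycan on the inner side, sarcoglycans brace the complex within the membrane, and syntrophins and dystrobrevins attach signalling proteins to it. In muscle its loss causes muscular dystrophies, and in myelinating glia dystroglycan serves as a laminin receptor.

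Library totals of the deposited counts ran from 60951 to 104017, and 3 counts, taken here as a floor for counting error, stood for 29.1 to 48.0 normalized CPM, which are counts scaled to the library total times its TMM factor. For 5353 genes with an authors' mean read count of at least 500, the mean deposited count per library was 0.384% of that mean in the median, with an interquartile range of 0.271% to 0.528%. The 8 genes of the complex lay between 0.206% (Sgcd, with 2 counts in all) and 0.676% (Dmd, with 5). In what follows, paired values stand in the order control 1, control 2 and clone A, clone B. Sox10 itself had 28 and 64 control counts and 0 and 14 clone counts, so that the library of clone B still held Sox10 transcripts, and Dag1 and Utrn are also given without it. The libraries were made with a stranded kit and the strand setting of the counting is not given, so that the deposited counts, a small share of the authors' means, may hold mostly reads of the strand opposite to each gene. Whether they do was not tested, and every count, CPM and fold below is to be read with this limit. The counts read RNA and not protein. Of the 12 oligodendroglial markers, 9 were above 3 counts in at least 1 library and Mag was at 0 in all of them. Olig1 had 12 and 1 control counts, Olig2 had 7 and 0, and neither was seen in a clone. Counts are not divided by transcript length, for which no source was at hand, so that levels are compared between samples and not between genes.

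For reference in what follows, the 250 bases before a transcript start were read for the genes of the complex from a RefSeq table of the rat assembly GRCr8. That assembly is not rn5, on which the reads were counted. The table had 9 entries for 7 of the 9 genes and none for Dag1 and Sntb1. The windows of Utrn, which was lower in the clones, and of its paralog Dmd, whose few counts lay in the controls, are shown because these 2 proteins fill the same place in the complex. Capitals mark the letters ACAAAG or ACAATG, core sequences that Sox proteins can bind, in either orientation (CTTTGT and CATTGT in reverse).

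Utrn, chr1:9044488-9044737, minus strand: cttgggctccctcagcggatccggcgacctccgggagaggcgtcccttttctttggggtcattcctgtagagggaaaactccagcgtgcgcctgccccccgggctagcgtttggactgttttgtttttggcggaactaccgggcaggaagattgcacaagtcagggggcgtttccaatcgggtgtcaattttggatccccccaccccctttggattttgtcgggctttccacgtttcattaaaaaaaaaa

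Dmd, chrX:51205836-51206085, plus strand: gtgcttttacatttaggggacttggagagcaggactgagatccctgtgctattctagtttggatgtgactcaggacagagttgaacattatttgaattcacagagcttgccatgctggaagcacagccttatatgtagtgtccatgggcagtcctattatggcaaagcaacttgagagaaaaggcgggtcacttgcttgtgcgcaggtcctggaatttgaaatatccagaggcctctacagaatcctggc

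Dmd, second start, chrX:53278763-53279012, plus strand: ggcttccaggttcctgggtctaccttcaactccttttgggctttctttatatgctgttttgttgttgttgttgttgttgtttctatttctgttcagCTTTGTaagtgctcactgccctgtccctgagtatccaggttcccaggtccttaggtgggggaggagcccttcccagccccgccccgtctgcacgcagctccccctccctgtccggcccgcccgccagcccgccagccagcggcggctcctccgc

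The Utrn window held neither motif. The first Dmd window held neither, and the second held CTTTGT once, beginning 154 bases before the start. A further Dmd entry overlaps the second and holds the same match. Among the other genes with an entry, Sgcd held both motifs, and Sgcb, Sgce, Sntb2 and Dtna held none. Over all 33469 windows of this table, 16.3% held ACAAAG and 11.1% held ACAATG, and 25.3% held at least 1 of these motifs. A match is a run of letters and was not examined for binding.

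Dystroglycan transcripts were lower in both Sox10-deficient clones. Dag1 (ENSRNOG00000019400) had 81 and 102 control counts against 41 and 40 clone counts. Expressed as normalized CPM, control 1 stood at 1295 and control 2 at 989, clone A at 476 and clone B at 453. The clones lay close together and the groups did not overlap, the lower control being control 2. The mean fell from 1142 ± 216 to 465 ± 16.4 CPM (SD, n = 2 each). The log2 fold change was -1.29 with a standard error of 0.28 and, by edgeR with Benjamini-Hochberg adjustment, an adjusted p of 0.0137. It is a 2.44-fold decrease with a 95% interval of 1.62- to 3.68-fold.

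Utrophin transcripts were lower in both clones as well. Utrn (ENSRNOG00000011058), whose product binds actin and beta-dystroglycan in place of dystrophin in many non-muscle cells, had 35 and 82 control counts against 23 and 26 clone counts. In normalized CPM, control 1 had 559, control 2 had 795, clone A had 267 and clone B had 294. Again the clones were alike and below both controls, whereas the controls differed more from each other. The mean fell from 677 ± 166 to 281 ± 19.3 CPM (SD, n = 2 each). The log2 fold change was -1.29 with a standard error of 0.33, and edgeR gave an adjusted p of 0.0336. This was a 2.44-fold decrease with a 95% interval of 1.52- to 3.93-fold.

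**Figure D1:**
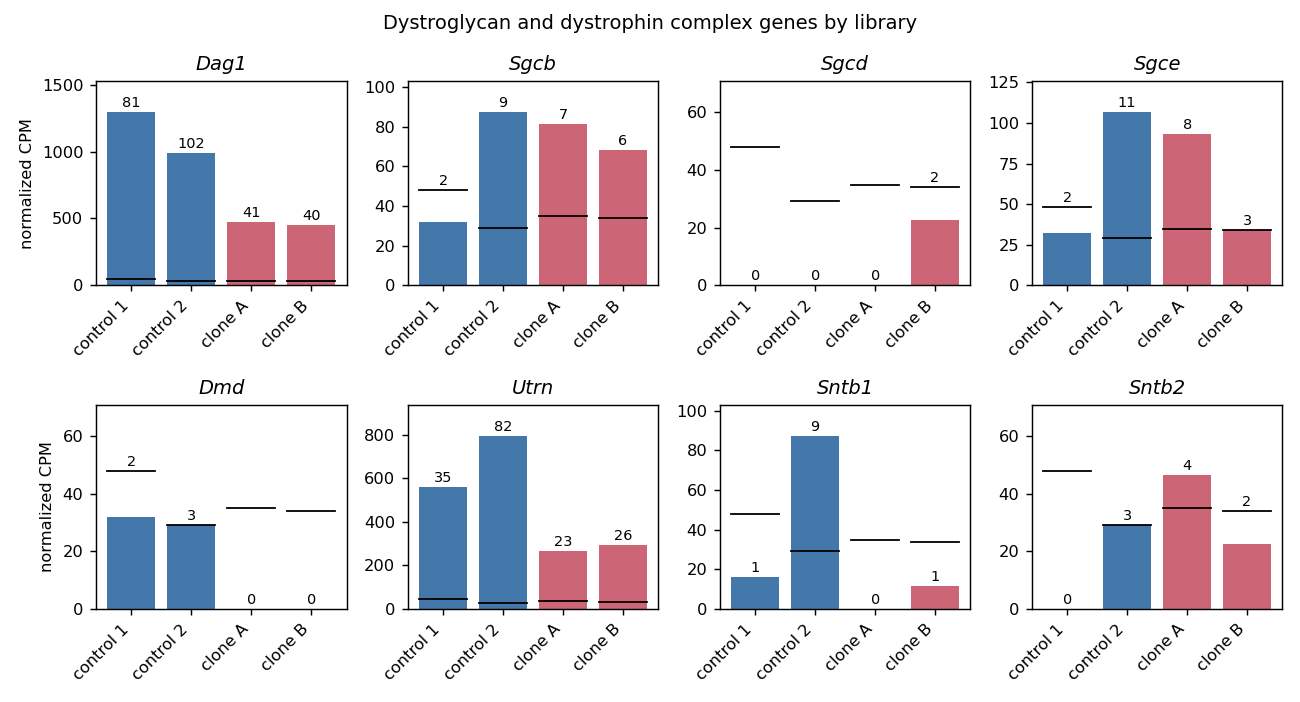
Normalized CPM (vertical axes, linear and on a scale of their own in each panel) of the 8 genes with deposited counts in control 1, control 2, clone A and clone B. Bars are single libraries, the number above each bar is its deposited count, and the black line is the level of 3 counts; Dag1 and Utrn are lower in both clones than in both controls, and the other genes lie near or under the line in at least 1 library.

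Both genes passed a 2-fold decrease with an adjusted p of 0.05 or less, which 2.5% of the 2438 tested genes did, and also the same cut with the unadjusted p, which 6.97% did. Clones below both controls were found for 21.4% of the tested genes. With 2 genes tested out of 9, and only genes with many counts able to pass, these counts say nothing about the complex as a whole. Of all tested genes, 137 had a lower log2 fold change than Dag1, and the median gene had -0.0059. Within a library, Dag1 had 2.31 and 1.24 times the counts of Utrn in the controls and 1.78 and 1.54 times in clones A and B, so that the ratio of these genes overlapped between the groups. Whether their decreases differ was not tested, and they moved apart in opposite directions when control 1 or control 2 was left out.

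**Figure D2:**
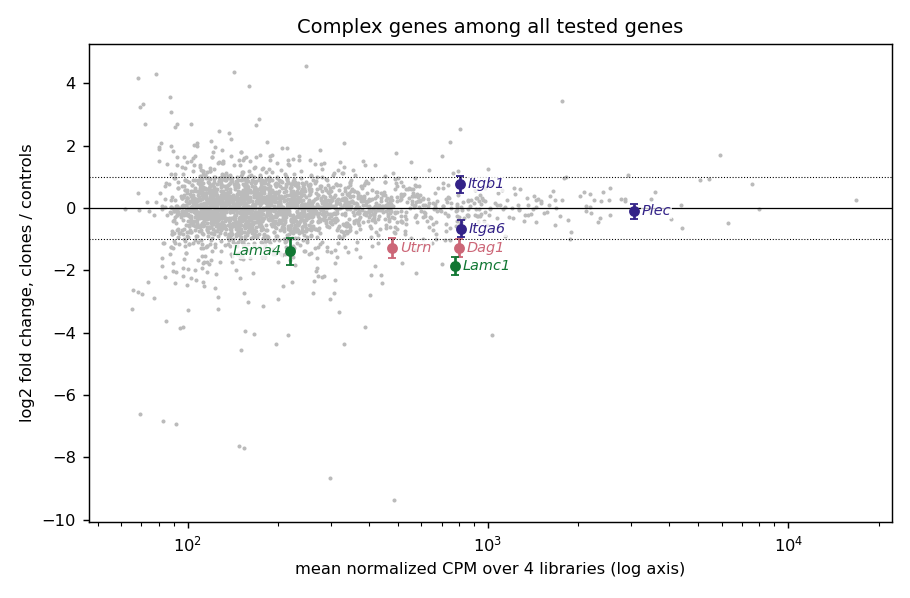
Log2 fold change of the Sox10-deficient clones over the controls (vertical axis) against the mean normalized CPM over the 4 libraries (horizontal log axis) for the 2438 tested genes in grey. Coloured points with standard errors are Dag1 and Utrn (red), Lamc1 and Lama4 (green), and Itgb1, Itga6 and Plec (blue); dotted lines mark 2-fold changes, and Dag1 and Utrn lie at -1.29 each, below the lower line.

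The size of both decreases changed little with the analysis, but the adjusted p did. By DESeq2, Dag1 was at -1.29 on the log2 scale and its adjusted p was 0.0862. Fitted by edgeR without control 2, clone A or clone B, Dag1 had an adjusted p of 0.386, 0.112 and 0.0760, with log2 fold changes of -1.51, -1.31 and -1.25. For Utrn, DESeq2 gave -1.28 with an adjusted p of 0.315, and the same fits of edgeR gave 0.498, 0.271 and 0.114 with log2 fold changes of -1.02, -1.21 and -1.36. Without control 1, both calls held in edgeR, with an adjusted p of 0.0353 at -1.11 for Dag1 and of 0.00292 at -1.52 for Utrn. Control 2 is the deepest library, and without it edgeR called no gene lower at the adjusted p, against 138 at the unadjusted p.

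**Figure D3:**
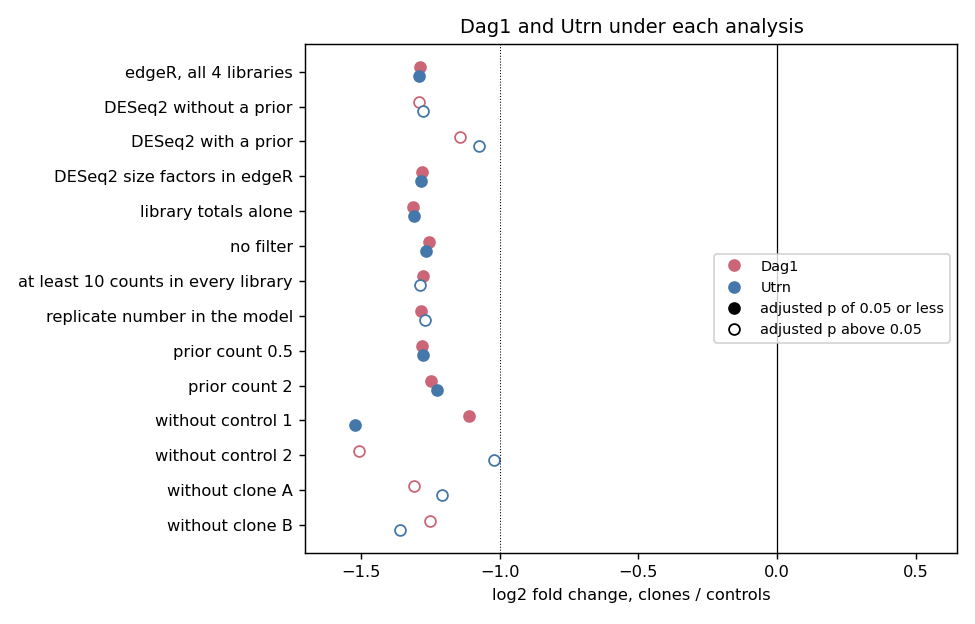
Log2 fold change of Dag1 (red) and Utrn (blue) on the horizontal axis under each analysis named on the vertical axis, with filled points for an adjusted p of 0.05 or less and open points for a higher one. Another prior count moves the fold change alone, so that its points keep the fill of the main fit by construction. All points lie left of the dotted line at -1, a 2-fold decrease, while 5 of the 13 alternatives for Dag1 and 7 of 13 for Utrn are open.

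Dystrophin transcripts were at the floor. Dmd (ENSRNOG00000046366), the muscular dystrophy gene, had 2 and 3 control counts and was not seen in a clone. As no library exceeded 3 counts, no fold change is given, and the 0 of 5 pooled counts allow a ratio of clones to controls of up to 1.04 by the exact 95% counting interval. A difference in Dmd was thus not detectable at the depth of the deposited counts. The study names Dmd and Dag1 among its candidate Sox10 target genes. It chose these for RNA at least 2-fold lower in Sox10-deficient OLN93 cells, a nearby Sox10 binding site and preferential expression in oligodendrocyte precursors. The first of these criteria came from this same series, so that the Dag1 decrease given here is not independent of it.

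Beta1-syntrophin counts came mostly from a single library. Sntb1 (ENSRNOG00000004821), an adaptor that docks signalling proteins to dystrophin and utrophin, had 1 and 9 control counts against 0 and 1 clone counts. The pooled ratio of clones to controls was 0.095, with an exact counting interval of 0.0022 to 0.668. Control 2 held most of these counts, and without it the ratio was 0.359, while without clone A it was 0.188. With the filter removed, edgeR placed Sntb1 at -2.97 on the log2 scale (standard error 1.53), and its adjusted p was 0.720. Sntb2 (ENSRNOG00000020344), the related beta2-syntrophin, had 0 and 3 control counts against 4 and 2 clone counts. Its pooled ratio was 1.90, with an interval of 0.406 to 11.7, and the groups overlapped.

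The sarcoglycan genes Sgcb, Sgce and Sgcd showed no detectable change. Sgcb (ENSRNOG00000002135), which encodes beta-sarcoglycan, had 2 and 9 control counts against 7 and 6 clone counts. Its pooled ratio was 1.12, with an exact counting interval of 0.464 to 2.77. Sgce (ENSRNOG00000046905), which encodes the widely expressed epsilon-sarcoglycan, had 2 and 11 control counts against 8 and 3 clone counts. Its ratio was 0.804, with an interval of 0.326 to 1.95, so that decreases as large as those of Dag1 and Utrn, to 41.0% and 40.9% of the controls, lie within the counting error of Sgce. For Sgcb the interval ended just above them, without the spread between libraries. Without control 2 the ratio was 2.33 for Sgcb and 1.97 for Sgce, and without clone A it was 0.433 for Sgce. Sgcd (ENSRNOG00000002372), which encodes delta-sarcoglycan, had 2 counts in clone B and 0 in the other libraries. In RefSeq, Sgcb and Sgce have the protein-coding neighbours Lrrc66, at 0 in all libraries, and Peg10, which has no row among the counts. The neighbours of Dag1 (Snrpd2-ps3), Utrn (LOC134482576 and LOC134482577) and Dmd (among them the protein-coding LOC134484068) have no row there either. Added up, the 3 sarcoglycan genes had 4 and 20 control counts against 15 and 11 clone counts, and the groups overlapped.

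**Figure D4:**
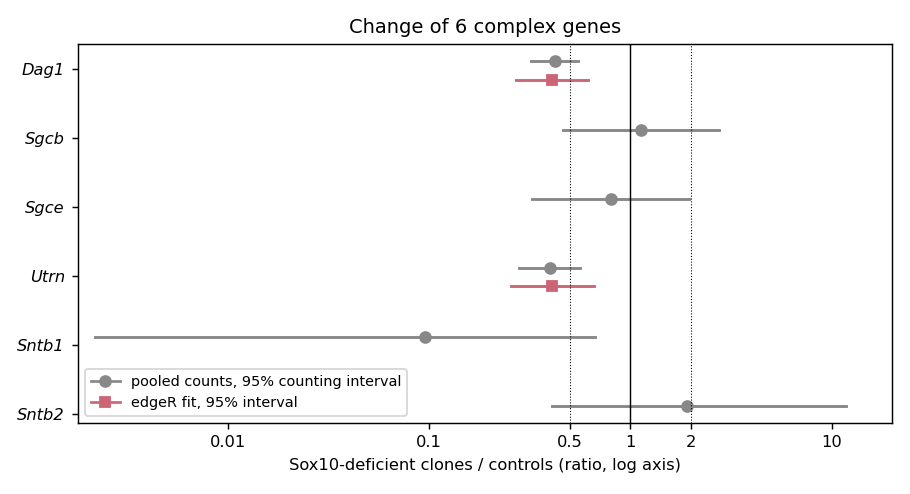
Ratio of the Sox10-deficient clones to the controls (horizontal log axis) for the 6 genes with more than 3 counts in at least 1 library. Grey points are pooled normalized counts with exact 95% intervals for counting error alone, red squares are the edgeR fits with 95% intervals; the intervals of Dag1, Utrn and Sntb1 lie left of 1, where Sntb1 rests on 11 counts, and those of Sgcb, Sgce and Sntb2 include 1.

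In fits without the filter, the lowest unadjusted p among the 6 genes with few counts was 0.0516, that of Sntb1, and none of them passed the adjusted threshold. The authors' mean read count, which is far above the deposited counts per library, was 12914 for Dag1, 9936 for Utrn, 1559 for Sgcb, 1031 for Sgce, 744 for Sntb1, 526 for Sntb2, 487 for Dtna, 243 for Sgcd and 185 for Dmd. These means are over all libraries of the series and hold no comparison. At the median share of 0.384%, the mean of Dtna would correspond to 1.87 counts per library, below the floor. The low counts do not show that these genes were silent.

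Among other subunits of the complex, most had too few counts to be tested. Of 12 such genes 11 were in the files, and 7 of these had 0 counts in all libraries, among them Drp2, a dystrophin-related protein of myelinating Schwann cells. Only Sspn, encoding the small membrane protein sarcospan, could be tested. It had 6 and 12 control counts against 14 and 9 clone counts. Its log2 fold change was 0.29 with a standard error of 0.60, and by edgeR the adjusted p was 0.914. Sgca, encoding alpha-sarcoglycan and too low to be tested, had 4 and 4 control counts against 11 and 6 clone counts. In CPM both clones lay above both controls, a separation whose share over all genes was not taken. The pooled ratio of Sgca was 2.02, with an exact counting interval of 0.826 to 5.41.

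Among the matrix ligands, the laminin chain Lamc1 was lower, and Lama4 was lower at the unadjusted p alone. Of 15 ligand genes, 12 were in the files and 5 were tested, of which 2 passed the 2-fold decrease at the unadjusted p and none the increase, where 6.97% of all tested genes were lower and 4.63% higher. After adjustment over all tested genes 1 ligand was lower and none was higher, where 2.5% of all tested genes were lower and 1.11% higher. The median log2 fold change of the 5 ligands was 0.14. Lamc1, the gamma1 chain shared by most laminins, had 73 and 130 control counts against 35 and 23 clone counts. It fell from 1214 ± 65.9 to 334 ± 103 CPM (SD, n = 2 each), which is -1.87 on the log2 scale with a standard error of 0.30, and the edgeR adjusted p was 0.00107. Without control 2 its adjusted p was 0.459 at a log2 fold change of -1.84. Lama4, the alpha4 chain of laminins in vessels and peripheral nerve, had 19 and 34 control counts against 12 and 9 clone counts. Its log2 fold change was -1.39 (standard error 0.44), with an adjusted p of 0.0939 from edgeR that missed the threshold. Lama5, the alpha5 chain, and Bgn, encoding the proteoglycan biglycan, had log2 fold changes of 0.66 and 0.54 with standard errors of 0.40 and 0.26, and neither was called. Lamb2 was tested as well, at 0.14.

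The enzymes that build the laminin-binding glycan on alpha-dystroglycan showed no call. All 17 were in the files and 3 could be tested, with a median log2 fold change of 0.34. At the unadjusted p, 6.97% of all tested genes were lower and 4.63% higher. B3galnt2, which adds a sugar to the core of this glycan, had 11 and 49 control counts against 22 and 54 clone counts, and its log2 fold change was 0.34 (standard error 0.44). Gmppb, which supplies the mannose donor, had 0.27 (standard error 0.36). For both, controls and clones overlapped. Pomt2 was tested as well, with 9 and 18 control counts against 21 and 23 clone counts and both clones above both controls. The share of all tested genes with that separation was not taken. The log2 fold change of Pomt2 was 0.64 (standard error 0.43), and the edgeR adjusted p was 0.564.

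On the cytoplasmic side, none of the 7 tested genes among 15 proteases and partners of dystroglycan was called, where 6.97% of all tested genes were lower and 4.63% higher at the unadjusted p, and their median log2 fold change was -0.08. Plec, encoding the cytoskeletal linker plectin, which binds beta-dystroglycan, had 216 and 301 control counts against 260 and 256 clone counts, and its log2 fold change was -0.11 (standard error 0.24). Vcl, encoding vinculin, had -0.08 (standard error 0.33). Of the same list, and named after their values were seen, the kinase gene Mapk3 had 23 and 26 control counts against 15 and 12 clone counts and was at -0.97 (standard error 0.43), with both clones below both controls and an edgeR adjusted p of 0.299. Msn, encoding moesin, was at 0.64 (standard error 0.37), with both clones above both controls and an edgeR adjusted p of 0.476. The integrins that also bind laminin were 5 genes, of which 4 were tested and none was called, with a median log2 fold change of 0.53. Itgb1, the beta1 chain, had 33 and 68 control counts against 96 and 82 clone counts, and in CPM both clones lay above both controls. Its log2 fold change was 0.76 with a standard error of 0.27, at an edgeR adjusted p of 0.158. Itga6, a laminin-binding alpha chain, was at -0.67 with a standard error of 0.27 and an edgeR adjusted p of 0.224, with both clones below both controls. Both changes were under 2-fold and failed the adjustment. Both clones also lay above both controls for Itgb4, Ezr and, among the ligands, Bgn. Clones below both controls were found for 21.4% of the tested genes, and the share above both controls was not taken. Neither separation is thus read as a trait of the genes named here.

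**Figure D5:**
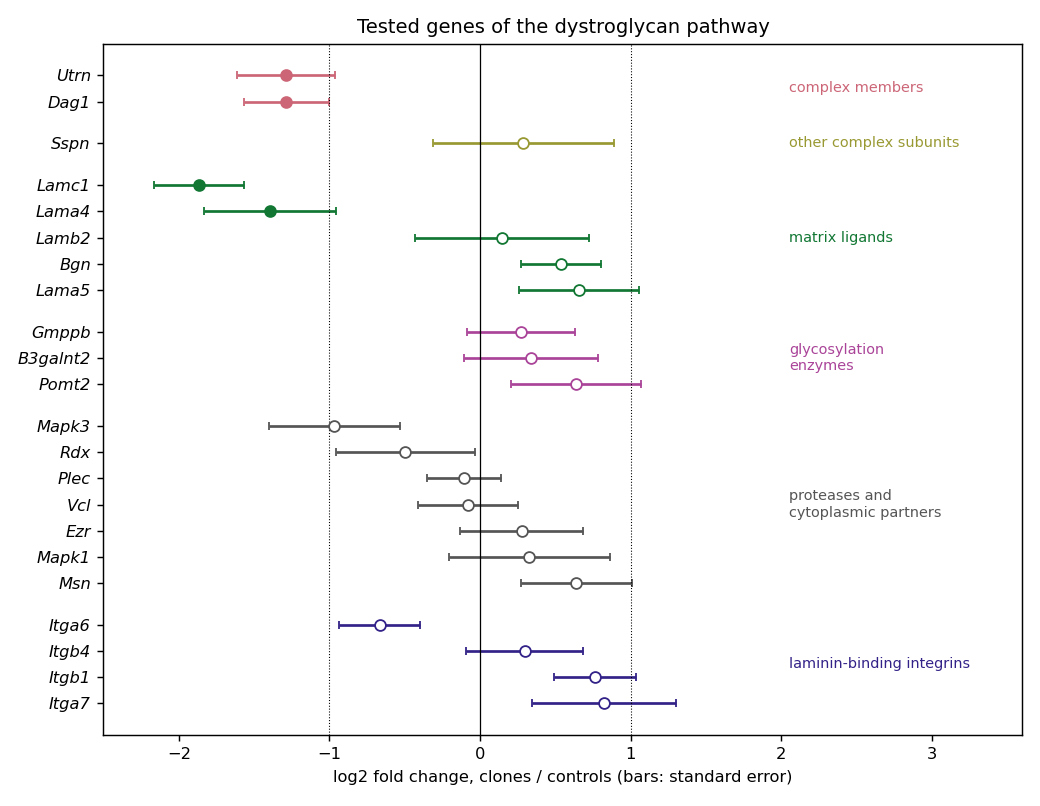
Log2 fold change of the clones over the controls (horizontal axis, bars are standard errors) for every tested gene of the dystroglycan pathway, grouped by role. Filled points were at least 2-fold changed with an unadjusted p of 0.05 or less; these are Dag1, Utrn, Lamc1 and Lama4, and the points of the other groups are open.

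The genes closest to Dag1 in their pattern over the 4 libraries were Amotl2, Papss1, Zeb2, Mtrr and Celf4. Closeness was the root mean square difference of log2 CPM, each centred on the mean of its gene, and ran from 0.052 for Amotl2 to 0.11 for Celf4. Their log2 fold changes were -1.31, -1.42, -1.31, -1.86 and -1.25 in this order. Decreases like that of Dag1 follow from this choice of genes. By edgeR their adjusted p was 0.158, 0.0539, 0.0477, 0.311 and 0.0963, so that only Zeb2 passed. Mtrr had 3 counts in each clone, which is at the floor. With only 4 points per gene, this likeness is a description.

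Some markers of other glia were lower in the clones, as Dag1 and Utrn were, and others were not. The 10 Schwann cell and neural crest markers, of which 9 were in the files, summed to control levels of 1103 and 1241 CPM and clone levels of 256 and 215 CPM. Of their 3 tested genes, Ngfr and Erbb3 were lower and at 0 in both clones, and Tfap2a was not called at -0.08, where 2.5% of all tested genes were lower at the adjusted p. Pou3f1 and Gap43 were at 0 in all libraries. The 9 astrocyte markers summed to control levels of 512 and 446 CPM and clone levels of 46.5 and 125 CPM, and S100b, the only one tested, was lower. Fgfr3, too low to be tested, had 5 and 17 control counts against 0 and 2 clone counts. The study lists it among genes preferentially expressed in oligodendrocyte precursors, so that it does not mark astrocytes alone. Gja1 was seen in the clones alone, with 1 and 4 counts, Kcnj10 had 0 and 7 control counts against 1 and 4 clone counts, and Aqp4, Aldh1l1, Slc1a3 and Slc1a2 were at 0 throughout. The oligodendroglial markers summed to control levels of 3037 and 2772 CPM and clone levels of 1928 and 1767 CPM. Their median log2 fold change over the 7 tested was -0.75. Sum and median include Sox10, the edited gene, at 448 and 620 CPM in the controls and 0 and 159 CPM in the clones. They also include Cnp, at 991 and 659 CPM against 407 and 226 CPM, and the sum without both genes was not taken. Of the 7 tested, Sox10 and Cnp were lower by edgeR, against the same 2.5% of all tested genes. Cspg4 and Pdgfra were at 0.93 and 0.22 and not called. By DESeq2 the adjusted p was 1.00 for Sox10 and 0.200 for Cnp. Without control 2, edgeR gave an adjusted p of 0.546 for Sox10, 0.497 for Cnp, 0.386 for Ngfr and S100b and 0.498 for Erbb3. Without clone A that of Sox10 was 0.0689, without clone B that of Cnp was 0.300, and without control 1 it was 0.0931 for Cnp and 0.114 for S100b. The 10 muscle markers summed to control levels of 144 and 291 CPM and clone levels of 232 and 204 CPM, with overlap. Their only tested gene, Tagln, was at 0.03, and Des, Myog and Acta1 were at 0. The part of these markers in the decreases of Dag1 and Utrn was not tested. In bulk RNA, fewer cells with a transcript and less transcript per cell cannot be told apart.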

How the data were processed

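The authors mapped reads of stranded mRNA libraries to the rat genome rn5 with STAR 2.5.1 and deposited, for each library, HTSeq counts per gene symbol without normalization. The strand option of the counting is not given in the sources used here, so that the counts may mix reads of a gene and of an antisense neighbour or, if the setting was opposite to that of the kit, hold mostly opposite-strand reads. The authors' table per Ensembl gene also holds a mean read count, normalized and rounded and treated here as a score. Its fold changes, Wald statistics and p-values from DESeq2 were not used. No column belonged to another sample.

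The quasi-likelihood test of edgeR 4.0.16 under R 4.3.3 (minimum count of 10 in filterByExpr, TMM scaling, glmQLFit and glmQLFTest) had condition as its term, was two-sided and was adjusted by Benjamini-Hochberg over 2438 genes. CPM used library totals times TMM factors. Standard errors came from the F statistic. DESeq2 1.42.0 was an alternative. The code was tested on simulated data. Pooled ratios have exact Clopper-Pearson intervals at 95% (scipy 1.17.1, Python 3.11.15), which cover counting error only. The libraries of each group were pooled, so that the spread between libraries is left out. Reads that are not independent molecules would make these intervals too narrow even for counting error.

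Groups followed the labels. P-values rest on the spread between these samples, which edgeR moderated over all tested genes, and not on the spread of a single gene alone. Replicate pairs differed beyond counting noise (chi-square per gene of 2.18 and 2.20). The 9 genes and all lists were chosen with earlier results of these data known. Named were all members, Sox10, list genes called at the unadjusted p, the 2 most abundant tested genes per list beyond these, and the 5 genes most like Dag1. Lamb2, Pomt2, Sgca, Mapk3, Msn, Ezr, Itgb4, the list genes given only as 0 or by counts, and those under other observations were named after their values were seen. A planned level per coding length had no source of lengths. Alternatives were other tests, scalings, filters, prior counts, the replicate number in the model and leaving out each library.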

Additional observations from a re-analysis of the deposited data

How the results depend on the processing

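Dag1 and Utrn kept their direction and a decrease of at least 2-fold under all 13 alternatives each, and Dag1 kept its adjusted p in 8 and Utrn in 6 of them. DESeq2 without and with a prior gave log2 fold changes of -1.29 and -1.14 for Dag1 and of -1.28 and -1.08 for Utrn, all with an adjusted p above 0.05. Utrn also missed the threshold with at least 10 counts in every library (-1.29) and with the replicate number as a block (-1.27). The alternatives with another prior count in edgeR change the fold change alone. Both genes thus kept their adjusted p there by construction, which adds nothing to these tallies. Leaving out 1 library each gave -1.51 to -1.11 for Dag1 and -1.52 to -1.02 for Utrn. An arm left with 1 library was assumed to vary like the other, and the cause of the lost calls was not tested beyond fewer samples.

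The numbers of genes called moved more. At the unadjusted p, 170 lower and 113 higher genes became 103 and 68 with DESeq2, 96 and 63 with its prior, 329 and 295 without a filter (10024 genes tested), and 42 and 31 with at least 10 counts in every library (1122 genes tested). After adjustment, 61 and 27 became 28 and 8 with DESeq2, 30 and 8 with its prior, 8 and 9 with that minimum, and 28 and 11 with the replicate block. Without a filter 44 were higher after adjustment. Across the fits that left out 1 library, the lower genes ran from 0 to 70 after adjustment and the higher from 0 to 39. The counts of 0 came without control 2, where edgeR had 138 lower and 137 higher genes at the unadjusted p.

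With the replicate block Sox10 had an edgeR adjusted p of 0.13 and Erbb3 of 0.10. Signs turned only for genes that were not called. Tfap2a was at 0.0059 with the replicate block. Over the fits that left out 1 library, log2 fold changes ran from -0.065 to 0.59 for Sspn, -0.42 to 1.27 for B3galnt2, -0.075 to 0.81 for Gmppb, -0.22 to 0.053 for Vcl, -0.036 to 0.45 for Pdgfra, -0.57 to 0.88 for Tfap2a and -0.30 to 0.54 for Tagln. With library totals alone the median gene lay at -0.03. Same-numbered libraries deviated from their group means with a correlation of 0.12 over 2 pairs, and the numbers are not stated to mark a shared origin, so that the block has no known basis. Depth limits the 6 untested genes of the complex, which had 75 counts together.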

Other observations

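Several genes of the same pathway had too few counts to be tested and pooled ratios whose counting intervals left out 1. They were picked after their values were seen, and the share of all untested genes with such an interval was not taken. Agrn, encoding agrin, a matrix ligand of dystroglycan, had 5 and 11 control counts against 1 in each clone, a pooled ratio of clones to controls of 0.119 (exact 95% counting interval 0.0132 to 0.505). Large, encoding the enzyme that extends the laminin-binding glycan, had 8 and 9 counts against 4 and 1, a ratio of 0.279 (0.0806 to 0.789). Dpm1, of the same list of enzymes, had 5 and 7 counts against 0 and 3, a ratio of 0.238 (0.0430 to 0.880). Mmp2, a matrix metalloproteinase that can cleave beta-dystroglycan, had 4 and 21 counts against 7 and 0, with a ratio of 0.266 (0.0972 to 0.633), and its groups overlapped.

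In the other direction, Ispd, encoding an enzyme that makes a sugar donor for the same glycan, had 1 and 5 control counts against 8 and 15 clone counts, a ratio of 3.64 (1.44 to 10.9). Slit2, a guidance factor that binds dystroglycan, had 0 and 4 counts against 21 and 3, a ratio of 5.70 (1.96 to 22.6) that came from clone A, and its groups overlapped. These intervals cover counting error only, without the spread between libraries.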
